A study of Mus musculus with 20 samples.

Results

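Livers of mice that received the PPARa-M siRNA were compared with livers of mice that received the SEAP-M control siRNA, 4 mice in each group and 8 of the 20 arrays of the series. The arrays were chosen by the siRNA that the sample title names, and every gene on them was described except that the known PPARα targets, the cholesterol synthesis genes and the interferon genes were set aside. PPARa-M siRNA is aimed at the mRNA of Ppara, and SEAP-M control siRNA at secreted alkaline phosphatase, a reporter. The control mice therefore also received a small interfering RNA, by the same route and at the same dose of 40 µg, and livers were taken at 48 h in all groups. The other arrays were 4 of PPARa siRNA, 4 of GL3 control siRNA and 4 of Ringer's vehicle without siRNA. Neither the strain, sex or age of the mice nor the meaning of the suffix M is given in the sources used here.

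In hydrodynamic injection a large volume of fluid enters the tail vein within seconds and carries nucleic acid into the liver, mostly into hepatocytes. An siRNA guides the RNA-induced silencing complex, built around an Argonaute protein and its TNRC6 partners, to mRNAs that pair with it. PPARα, the protein of Ppara, is the nuclear receptor that drives fatty acid oxidation in the liver. The tissue also makes fatty acids, bile acids and urea, conjugates foreign compounds and exports the products, and these functions order the results. The RNA came from whole liver, in which fewer cells of a type and less RNA per cell cannot be told apart.

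Each array gave the log10 ratio of a mouse to a pool of 4 vehicle mice for 23493 probes, written here as log2 ratios averaged per gene over 15252 genes. That the ratio is mouse over pool is likely rather than stated, since the titles name the pool first and Ppara was lower on the arrays of the siRNA aimed at it. The opposite orientation would turn every sign given below. With this direction the Ppara log2 ratio was -0.59, -1.05, -0.59 and -0.62 in PPARa-M mice, against 0.80, -0.16, 0.12 and -0.07 in SEAP-M mice. The groups did not overlap, and the difference was -0.89 ± 0.17 (SE; limma adjusted p = 0.0103, exact two-sided permutation p = 0.0286, the smallest that 4 against 4 mice can give). PPARa-M arrays C and D lay closer to each other than any other 2 arrays of a group, with a median absolute difference of 0.091 over the probes against 0.099 to 0.229 elsewhere. Their correlation over probes was 0.529, that of PPARa-M A and B was 0.638, and those of A or B with C or D were 0.301 to 0.387. The interferon genes, set aside here, had mean log2 ratios of 0.11, -0.04, 1.01 and 1.00 in PPARa-M mice A to D, against -0.23 to 0.20 in SEAP-M mice. Fits without C and D are given below for several genes in which these mice stood apart.

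In the comparison of the groups 388 genes passed a limma test at a Benjamini-Hochberg adjusted p under 0.05, 2.54% of those tested, and are named as called below. Of these, 158 rose (1.04%) and 230 fell (1.51%) with PPARa-M siRNA, and 33 changed by 2-fold or more. The mice of the groups did not overlap in 362 of the called genes and in 10.1% of all genes (3.71% higher, 6.36% lower with PPARa-M siRNA). Set against vehicle mice, PPARa-M mice differed in 1110 genes (7.28%; 3.36% higher and 3.91% lower) and SEAP-M mice in 1 (0.00656%, lower). Of the 388 genes 289 also differed between PPARa-M and vehicle mice. Both comparisons use the same 4 PPARa-M arrays, so this overlap is no independent check of the calls. Below, "rose" and "fell" are said of PPARa-M mice relative to SEAP-M mice. The PPARa-M arrays were wider than the SEAP-M arrays, with interquartile ranges of the log10 ratios of 0.0735 to 0.1245 against 0.0520 to 0.0852. After scaling of the arrays to one interquartile range 8 genes rose and 5 fell, after quantile normalization 0 rose and 1 fell, and in a fit of the 8 arrays alone 13 rose and 28 fell. With C and D counted as 1 array, 61 rose and 119 fell. No called gene turned its direction in any of these fits. They reuse the arrays that gave the calls, so the kept directions say little about stability. Of 86 called genes that the rule for naming took up, 34 were called in each of the 8 fits that left out 1 array, all 34 with C and D averaged, and 29 with both left out. Of the 86, 36 were called without C and D, 11 in the fit of the 8 arrays, 4 after interquartile scaling and 0 after quantile normalization. Between PPARa-M and vehicle mice 63 of the 86 also differed, again with the PPARa-M arrays shared by both comparisons. Among those that did not were Osgin1, Pth1r, Gstt3, Cacna2d2, Galnt15 and Tfrc.

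Several genes of polyunsaturated fatty acid synthesis fell. Fads2 makes the Δ6 desaturase and Elovl5 and Elovl2 the elongases that turn dietary fatty acids into long polyunsaturated ones, and Acss2 makes the cytosolic enzyme that turns acetate into acetyl-CoA. Acss2 had log2 ratios of -1.43, -1.50, -1.44 and -1.44 in PPARa-M mice, against 0.25, -0.08, -0.46 and -0.70 in SEAP-M mice. The PPARa-M mice were tightly grouped and the SEAP-M mice spread over nearly a log2 unit, all above them, and the Acss2 difference was -1.20 ± 0.21 (adjusted p = 0.00752). Fads2 was -0.50, -0.52, -0.84 and -0.79 in PPARa-M mice, against 0.24, -0.06, -0.18 and -0.08 in SEAP-M mice, lower by 0.64 ± 0.09 on the log2 scale (adjusted p = 0.00167). Elovl5 was -0.65, -0.66, -1.0 and -1.14 in PPARa-M mice, against 0.34, 0.19, -0.12 and -0.38 in SEAP-M mice, a difference of -0.87 ± 0.18 (adjusted p = 0.0166). Elovl2 moved less, by -0.35 ± 0.06 (adjusted p = 0.00575). For each of these 4 genes every PPARa-M mouse was below every SEAP-M mouse. Elovl7, another elongase, rose by 0.41 ± 0.11 (adjusted p = 0.0428), with A and B at 0.62 and 0.54 and C and D at 0.13 and 0.12 in the PPARa-M group.

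Of the genes that supply and build saturated chains, Fasn and Acly were not called. The difference was 0.13 ± 0.30 for Fasn, fatty acid synthase (adjusted p = 0.867), and 0.05 ± 0.17 for Acly, ATP citrate lyase (adjusted p = 0.915). Fads1, the Δ5 desaturase, had a mean difference of -0.34 without passing (adjusted p = 0.157). Scd1, the Δ9 desaturase, had -1.04, -0.34, -2.21 and -2.25 in PPARa-M mice, against a range of -0.95 to 0.00 in SEAP-M mice, and did not pass (adjusted p = 0.164). Over the 34 fatty acid and triglyceride synthesis genes 1 rose (2.94%) and 4 fell (11.8%), beside 1.04% and 1.51% of all genes. The median difference was -0.12 against -0.014 over all genes. The Elovl5 call was lost without PPARa-M C, PPARa-M D or SEAP-M A (adjusted p up to 0.0626). The Elovl7 call was lost without PPARa-M A or B or SEAP-M A, B or C (up to 0.124).

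Calls among the detoxification enzymes were few in number. Their share was above that of all genes except among the cytochrome P450 genes, where none was called. Carboxylesterases cleave esters of drugs and lipids in the hepatocyte's endoplasmic reticulum, and 2 of the 15 measured, Ces1g and Ces2e, fell, beside 1.51% of all genes. Ces1g was -0.83, -0.95, -1.20 and -1.14 in PPARa-M mice, against -0.04, -0.08, 0.02 and -0.19 in SEAP-M mice, a difference of -0.96 ± 0.11 (adjusted p = 0.000337). Ces2e was -0.57, -0.81, -1.31 and -1.12 in PPARa-M mice, against -0.28, -0.08, -0.06 and -0.07 in SEAP-M mice (difference -0.83 ± 0.16, adjusted p = 0.0119). The gap between the groups exceeded the range of the SEAP-M mice for both genes, but without PPARa-M C and D the Ces2e difference was -0.57 and no longer passed (adjusted p = 0.0725). The median over the list was -0.36, and 12 of the 15 differences were negative, beside 8196 of 15252 over all genes.

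**Figure D1:**
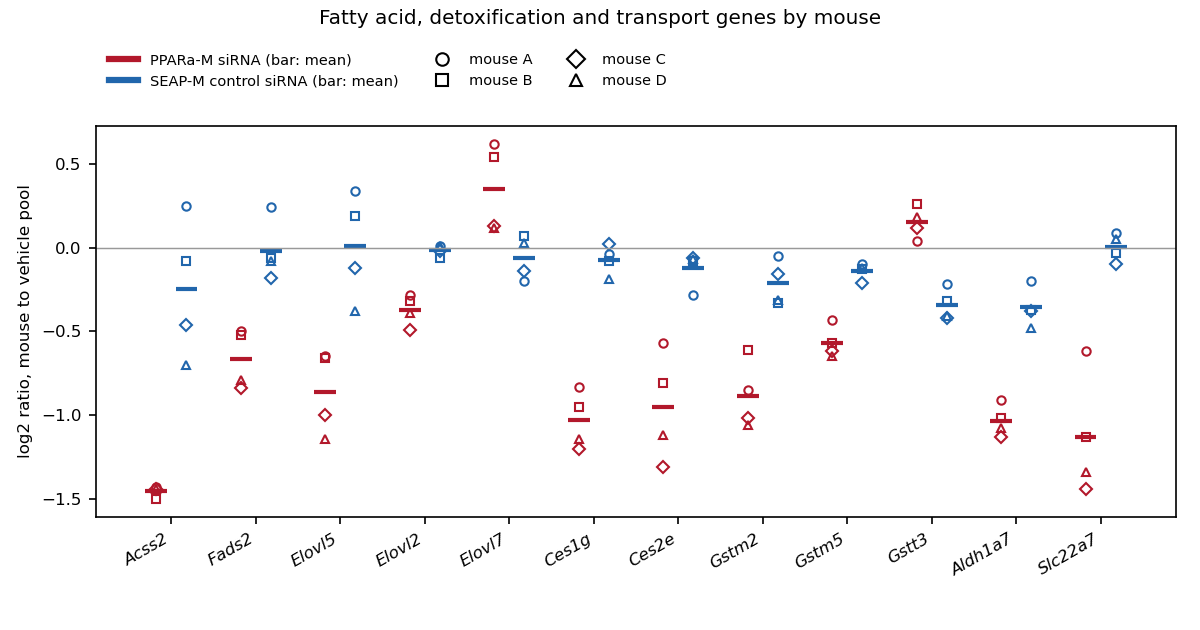
Log2 ratio of each mouse to the vehicle pool (vertical axis) for 12 genes of fatty acid synthesis, detoxification and transport, with PPARa-M siRNA mice in red and left of SEAP-M control siRNA mice in blue, and bars at the group means (n = 4 each). Points of the groups do not overlap for any of the 12 genes, and Acss2 in PPARa-M mice lies between -1.50 and -1.43.

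Glutathione transferases moved in both directions. Gstm2 was -0.85, -0.61, -1.02 and -1.06 in PPARa-M mice, against -0.05, -0.33, -0.16 and -0.31 in SEAP-M mice (difference -0.67 ± 0.12, adjusted p = 0.00763). Gstm5 fell by 0.43 on the log2 scale (adjusted p = 0.00944), and Gstt3, of the theta class, rose by 0.49 ± 0.09 (adjusted p = 0.00724). Mu-class genes share long stretches of sequence, so the probes may not separate them. Nat8, which acetylates cysteine conjugates after glutathione transfer, fell by 0.95 ± 0.23 (adjusted p = 0.0378). It was -1.19 and -1.08 in PPARa-M mice C and D and -0.57 and -0.60 in A and B, and its call was held only in the fits without PPARa-M A or B (adjusted p up to 0.104; -0.67 without both C and D, adjusted p = 0.169). Of the 47 conjugation enzymes 1 rose (2.13%) and 3 fell (6.38%), beside 1.04% and 1.51% of all genes, with a list median of -0.12.

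Among the alcohol, aldehyde and flavin oxidases 2 of 25 rose and 2 fell (8.0% each), beside 1.04% and 1.51% of all genes. Aldh1a7, a cytosolic aldehyde dehydrogenase, was -0.91, -1.02, -1.13 and -1.08 in PPARa-M mice, against -0.20, -0.37, -0.38 and -0.48 in SEAP-M mice (adjusted p = 0.00135). Adh4, an alcohol dehydrogenase that also accepts retinol, fell by 0.50 ± 0.10 (adjusted p = 0.0145). The flavin monooxygenases Fmo5 and Fmo2, which oxygenate nitrogen and sulfur in drugs, rose by 0.52 ± 0.10 and 0.50 ± 0.11 (adjusted p = 0.0115 and 0.0256). No gene of the 34 cytochrome P450 genes of families 1 to 3 on the list was called. At an unadjusted p under 0.05, 6 were higher and 7 lower, beside 1172 higher and 1699 lower of all 15252 genes. The smallest adjusted p among the P450 genes was that of Cyp2j6, with a difference of -0.42 ± 0.12 (adjusted p = 0.0685). Cyp2c23, an arachidonic acid epoxygenase that the list does not hold and that was chosen after its values were seen, was -0.62, -1.08, -0.58 and -0.71 in PPARa-M mice, against 0.23, -0.02, -0.07 and -0.16 in SEAP-M mice (adjusted p = 0.00135). The Adh4 call was lost without PPARa-M C or SEAP-M A (adjusted p up to 0.0565), and the Fmo2 call without PPARa-M C, PPARa-M D or SEAP-M B (up to 0.0795).

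Transport and bile acid genes were mixed. Slc22a7, the organic anion transporter OAT2 of the hepatocyte membrane, was -0.62, -1.13, -1.44 and -1.34 in PPARa-M mice, against 0.09, -0.03, -0.10 and 0.05 in SEAP-M mice. The difference was -1.14 ± 0.18 (adjusted p = 0.00409), and the SEAP-M mice lay within 0.2 log2 units of each other. Cyp39a1, the oxysterol 7α-hydroxylase of a side route of bile acid synthesis, was 0.27, 0.57, 1.65 and 1.55 in PPARa-M mice, against -0.25, -0.27, 0.23 and -0.12 in SEAP-M mice (difference 1.11 ± 0.28, adjusted p = 0.0428). Without C and D the difference was 0.52 (adjusted p = 0.253), and the call was held only without PPARa-M A or B (adjusted p up to 0.115). Amacr, which inverts the side chain of bile acid intermediates, fell by 0.42 ± 0.09 (adjusted p = 0.0194), a call lost without PPARa-M C, SEAP-M A or SEAP-M C (up to 0.0680). Cyp8b1, the 12α-hydroxylase of cholic acid synthesis, was -0.76, -2.01, -0.05 and -0.08 in PPARa-M mice, against 0.42, 0.10, 0.51 and 0.10 in SEAP-M mice, and did not pass (adjusted p = 0.104). The 29 bile acid genes had a median difference of -0.18.

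In nitrogen and amino acid metabolism the urea cycle gene Asl rose, and Prodh2 and Aldh4a1, of hydroxyproline and proline breakdown, fell. Asl, argininosuccinate lyase, was 0.14, 0.43, 0.42 and 0.38 in PPARa-M mice, against -0.38, -0.28, -0.28 and -0.19 in SEAP-M mice (difference 0.62 ± 0.09, adjusted p = 0.00163). The other 8 urea cycle genes were not called, so 11.1% of the list was called higher, beside 1.04% of all genes. Of the 9 differences 8 were positive, beside 7056 of 15252 over all genes, with a list median of 0.14. Prodh2 (hydroxyproline dehydrogenase) and Aldh4a1 (the aldehyde dehydrogenase that completes proline breakdown) fell by 0.46 and 0.43 on the log2 scale (adjusted p = 0.0278 and 0.0337). They were the called genes among 37 of amino acid breakdown (5.41%, beside 1.51% of all genes called lower). Prodh2 lost its call without PPARa-M C, PPARa-M D or SEAP-M A (adjusted p up to 0.0937), and Aldh4a1 without those or SEAP-M B or C (up to 0.0979). Suclg1, a subunit of succinyl-CoA synthetase, fell by 0.41 ± 0.07 (adjusted p = 0.00878). It was the called gene among 25 of the citric acid cycle (4.0%, beside 1.51% of all genes called lower), a list with a median of -0.10. Nnmt, which methylates nicotinamide at the cost of S-adenosylmethionine, was -0.06, -0.05, 0.36 and 0.45 in PPARa-M mice, against -0.85, -0.59, -0.46 and -0.46 in SEAP-M mice (adjusted p = 0.0462). Its call was held only without PPARa-M A or B (adjusted p up to 0.134), without both C and D the difference was 0.54 (adjusted p = 0.194), and Nnmt in PPARa-M mice lay 0.04 above vehicle mice (adjusted p = 0.936).

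Of 33 glucose and glycogen genes Slc2a4 alone was called (3.03%, beside 1.04% of all genes called higher). Slc2a4, the insulin-responsive glucose transporter GLUT4 of muscle and fat, was 0.94, 1.36, 0.38 and 0.45 in PPARa-M mice, against -0.63, -0.10, -0.25 and -0.19 in SEAP-M mice (difference 1.07 ± 0.20, adjusted p = 0.00855). Here A and B were the higher PPARa-M mice. G6pc, the glucose-6-phosphatase that releases glucose from the liver, was 0.03, 0.67, 0.88 and 0.80 in PPARa-M mice, against -0.28, -0.41, -1.14 and -0.42 in SEAP-M mice, and did not pass (difference 1.16 ± 0.33, adjusted p = 0.0672). Pck1, the enzyme that opens gluconeogenesis, was 1.33 and 1.63 in PPARa-M C and D but -0.36 and -0.51 in A and B, against -0.90 to -0.40 in SEAP-M mice (adjusted p = 0.0739). Slc2a5, the fructose transporter, chosen after its values were seen, fell by 0.76 ± 0.14 (adjusted p = 0.00944).

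Of 28 antigen presentation genes 0 rose and 3 fell (10.7%), beside 1.04% and 1.51% of all genes. The 3 were all class I genes of the major histocompatibility complex. Class I heavy chains present peptides to T cells, interferons normally raise them, and H2-Q10 codes for a secreted form made by hepatocytes. H2-Q10 was -0.59, -1.05, -1.25 and -0.70 in PPARa-M mice, against -0.12, -0.06, -0.26 and -0.14 in SEAP-M mice (difference -0.75 ± 0.13, adjusted p = 0.00763). H2-D1 was -0.48, -0.82, -0.56 and -0.42 in PPARa-M mice, against 0.39, 0.03, -0.14 and -0.17 in SEAP-M mice (adjusted p = 0.0167). H2-K1 was -0.52, -0.90, -0.56 and -0.52 in PPARa-M mice, against 0.36, -0.04, -0.31 and -0.25 in SEAP-M mice (adjusted p = 0.0425). These genes are close copies of each other, so their probes may share signal. PPARa-M mice C and D, whose interferon genes were high, lay within the range of A and B or within 0.1 log2 units of it for H2-D1 and H2-K1. The light chain gene B2m (-0.14 ± 0.13, adjusted p = 0.573) and the peptide transporter gene Tap1 (0.02 ± 0.24, adjusted p = 0.978) were not called and the median over the list was -0.02. H2-T18, a nonclassical class I gene chosen after its values were seen, fell by 0.59 ± 0.07 (adjusted p = 0.000502). The H2-K1 call was lost without PPARa-M B, C or D or SEAP-M A or B (adjusted p up to 0.123), and the H2-D1 call without SEAP-M A (0.0547).

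The promoters of the 3 genes are shown because the genes moved together and because class I promoters are known for elements through which interferon and NF-κB act. Each is the 250 bases before a RefSeq transcription start on chromosome 17 (GRCm38.p6), written 5′ to 3′ on the gene's strand, for H2-K1 (minus strand) chr17:34000348-34000597, for H2-D1 (plus) chr17:35262844-35263093 and for H2-Q10 (plus) chr17:35469839-35470088. Capitals mark the enhancer A palindrome (GGGGA, 1 free base, TCCCC) and the interferon response element (AGTTTC, 2 free bases, TTCT), searched on both strands. The 2 matches did not overlap.
H2-K1: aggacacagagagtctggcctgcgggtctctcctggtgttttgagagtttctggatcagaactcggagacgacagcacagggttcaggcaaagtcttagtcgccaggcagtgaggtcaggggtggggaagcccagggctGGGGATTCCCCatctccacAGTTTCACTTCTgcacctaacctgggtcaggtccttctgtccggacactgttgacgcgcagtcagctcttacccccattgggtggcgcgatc
H2-D1: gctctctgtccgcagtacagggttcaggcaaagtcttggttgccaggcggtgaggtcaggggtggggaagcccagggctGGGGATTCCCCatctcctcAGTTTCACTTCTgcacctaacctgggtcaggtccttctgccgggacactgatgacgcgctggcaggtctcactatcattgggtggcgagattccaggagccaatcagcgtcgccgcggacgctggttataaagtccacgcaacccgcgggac
H2-Q10: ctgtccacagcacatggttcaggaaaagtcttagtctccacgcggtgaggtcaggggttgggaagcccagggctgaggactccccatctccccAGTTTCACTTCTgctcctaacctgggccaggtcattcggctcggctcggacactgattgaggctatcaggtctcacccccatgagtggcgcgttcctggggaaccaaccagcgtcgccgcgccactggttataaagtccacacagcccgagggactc
H2-K1 and H2-D1 held both elements, and H2-Q10 held the interferon element but not the palindrome. Of 32851 mouse promoter windows of this length, 15 (0.0457%) held the palindrome and 62 (0.189%) the interferon element. A match is a match of letters only. The table gives 2 starts for H2-K1, of which the first is shown.

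Socs1 and Shisa5 moved the other way from class I. Socs1, an inhibitor of cytokine receptor signalling that JAK-STAT signals induce, was 0.48, 0.56, 1.33 and 1.42 in PPARa-M mice, against -0.27, 0.39, 0.26 and 0.24 in SEAP-M mice (adjusted p = 0.0292). Shisa5, a p53-induced membrane protein, was 0.43, 0.37, 1.16 and 1.08 in PPARa-M mice, against -0.61, 0.10, -0.09 and 0.09 in SEAP-M mice (adjusted p = 0.0104). In both, C and D were the higher PPARa-M mice, as in the interferon genes, and without them the differences were 0.37 for Socs1 and 0.53 for Shisa5 (adjusted p = 0.164 and 0.0624). The Socs1 call was lost without PPARa-M C, PPARa-M D, SEAP-M A or SEAP-M C (adjusted p up to 0.0990). None of the 50 cytokine, chemokine and NF-κB target genes and none of the 26 acute phase genes was called by limma. At an unadjusted p under 0.05, 8 and 1 of them differed, beside 1172 higher and 1699 lower of all 15252 genes.

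**Figure D2:**
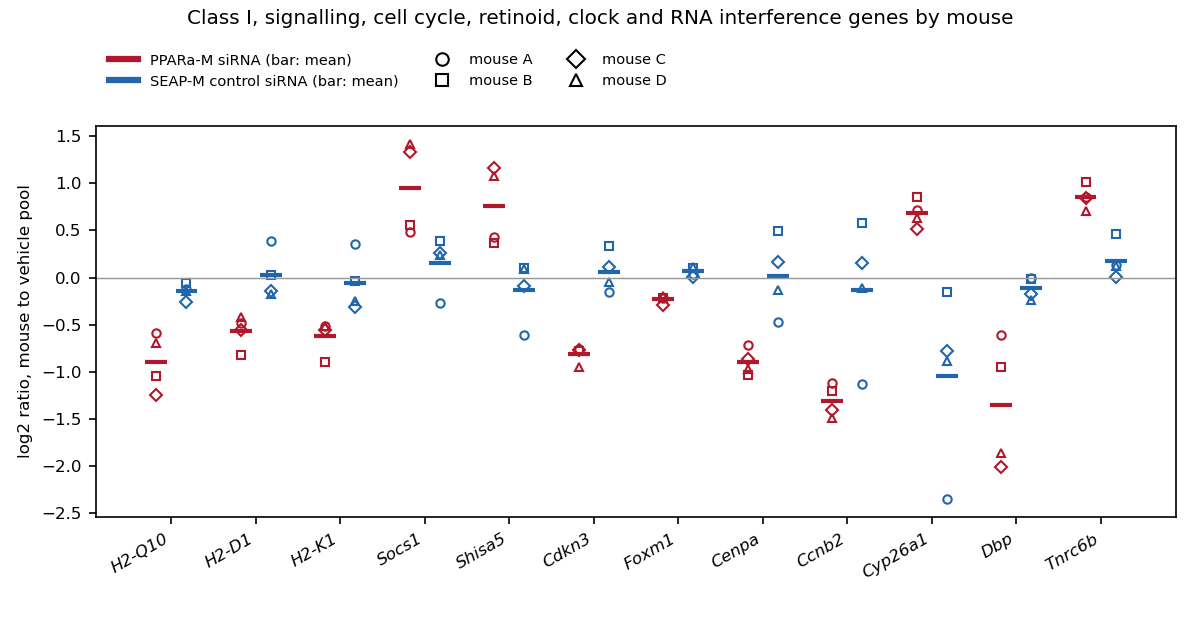
Log2 ratio of each mouse to the vehicle pool (vertical axis) for 12 genes of antigen presentation, signalling, cell cycle, retinoid breakdown, clock and RNA interference, PPARa-M siRNA mice in red and left of SEAP-M control siRNA mice in blue, with bars at the group means (n = 4 each). SEAP-M mouse A lies at -1.13 for Ccnb2, within the PPARa-M range, and at -2.35 for Cyp26a1.

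Of 62 cell cycle genes 0 rose, 4 fell and 58 were not called, beside 1.51% of all genes called lower. Of the differences 54 were negative, beside 8196 of 15252 over all genes, and the median was -0.36. Cdkn3, a phosphatase of cyclin-dependent kinases, was -0.76, -0.78, -0.77 and -0.95 in PPARa-M mice, against -0.15, 0.33, 0.11 and -0.05 in SEAP-M mice (adjusted p = 0.0104). Foxm1, the transcription factor of G2/M genes, fell by 0.29 ± 0.06 (adjusted p = 0.0109). Cenpa, the histone variant of centromeres, fell by 0.91 ± 0.21 (adjusted p = 0.0270). Of the mitotic genes outside the list, Cdca3 and Cenpm, fell by 1.13 and 1.04 on the log2 scale (adjusted p = 0.0370 and 0.0194). Ccnb2, cyclin B2, was -1.12, -1.21, -1.41 and -1.49 in PPARa-M mice, against -1.13, 0.58, 0.15 and -0.11 in SEAP-M mice, so SEAP-M mouse A was as low as the PPARa-M mice (adjusted p = 0.0493). The mean over the list was -0.61 to -0.36 in PPARa-M mice, against -0.49, 0.30, -0.01 and -0.09 in SEAP-M mice A to D. Mki67, the proliferation antigen, and Top2a were not called (adjusted p = 0.282 and 0.261). The Cenpa call was lost without PPARa-M B, C or D or SEAP-M B or C (adjusted p up to 0.0772), and that of Cenpm without PPARa-M C or D or SEAP-M B or C (up to 0.0683). Those of Cdca3 (up to 0.0949) and Ccnb2 (up to 0.123) were lost in all such fits but 2 and 1, those without PPARa-M A or SEAP-M A for Cdca3 and without SEAP-M A for Ccnb2.

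Cyp26a1, the hydroxylase that clears retinoic acid, was the called gene among 24 retinoid genes (4.17%, beside 1.04% of all genes called higher). It was 0.72, 0.86, 0.52 and 0.63 in PPARa-M mice, against -2.35, -0.15, -0.78 and -0.89 in SEAP-M mice (difference 1.72 ± 0.37, adjusted p = 0.0199). The SEAP-M mice were all below the vehicle pool and the PPARa-M mice all above it, and without SEAP-M A the adjusted p was 0.0503. Set against vehicle mice, Cyp26a1 in PPARa-M mice did not pass (0.76, adjusted p = 0.225). Retinoic acid acts on Cyp26a1 through a repeat close to its start. The 250 bases before the start are shown for that reason (plus strand, chr19:37697558-37697807, GRCm38.p6), with the repeat (AGTTCA, 5 free bases, AGTTCA), searched on both strands and found on the opposite one, in capitals.
Cyp26a1: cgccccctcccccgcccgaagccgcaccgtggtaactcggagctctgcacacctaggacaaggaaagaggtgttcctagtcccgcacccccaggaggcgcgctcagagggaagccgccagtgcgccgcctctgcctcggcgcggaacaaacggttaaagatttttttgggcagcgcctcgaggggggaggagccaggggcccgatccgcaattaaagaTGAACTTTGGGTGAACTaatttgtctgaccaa
The repeat began 32 bases before the start and was found in 7 of the 32851 promoter windows (0.0213%).

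Clock, iron and immediate-early genes gave few calls. The shares called were 9.52% lower for clock genes, 3.33% higher and 3.33% lower for iron and heme genes and 3.23% higher for immediate-early genes. Those of all genes were 1.04% higher and 1.51% lower. Dbp, a clock output transcription factor, was -0.61, -0.95, -2.01 and -1.86 in PPARa-M mice, against values from -0.24 up to the level of the pool in SEAP-M mice (difference -1.25 ± 0.31, adjusted p = 0.0370). Bhlhe41, a repressor in the clock loop, fell by 0.46 ± 0.11 (adjusted p = 0.0390), while the other 19 clock genes were not called. Tfrc, the transferrin receptor, was 0.56, 1.03, 0.63 and 0.43 in PPARa-M mice, against -0.60, -0.54, -0.43 and 0.21 in SEAP-M mice (adjusted p = 0.0426). Dusp1, a phosphatase of MAP kinases, was 1.47, 0.24, 1.65 and 1.52 in PPARa-M mice, against -0.32, 0.40, -0.09 and 0.11 in SEAP-M mice (adjusted p = 0.0266). PPARa-M mouse B lay within the SEAP-M range for Dusp1. The Dbp call was lost without PPARa-M C or D or SEAP-M A, B or C (adjusted p up to 0.105), and without both C and D the difference was -0.67 (adjusted p = 0.211), and that of Bhlhe41 without PPARa-M B, C or D or SEAP-M C or D (up to 0.0907). The Tfrc call was held only without SEAP-M D (up to 0.119), and that of Dusp1 was lost without PPARa-M C or D or SEAP-M A or C (up to 0.0859).

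Among 19 genes of the RNA interference machinery Tnrc6b rose and Prkra fell (5.26% each), beside 1.04% and 1.51% of all genes. Tnrc6b, a scaffold that binds Argonaute and recruits deadenylases, was 0.85, 1.01, 0.84 and 0.71 in PPARa-M mice, against 0.13, 0.46, 0.01 and 0.12 in SEAP-M mice (difference 0.68 ± 0.14, adjusted p = 0.0158). Prkra, a partner of Dicer that also activates the kinase PKR, fell by 0.38 ± 0.09 (adjusted p = 0.0325). The Tnrc6b call was lost without SEAP-M C (adjusted p = 0.0588), and that of Prkra without PPARa-M C, SEAP-M A or SEAP-M C (up to 0.0966).

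Acnat2 had the largest increase of the 158 genes that rose, and codes for an acyl-CoA amino acid N-acyltransferase of peroxisomes. It was 0.80, 0.92, 2.05 and 2.03 in PPARa-M mice, against -0.71, -0.85, -0.20 and -0.34 in SEAP-M mice, a difference of 1.97 ± 0.35 (adjusted p = 0.00779) that was 1.38 without C and D (adjusted p = 0.0513). Zbtb16, a zinc finger repressor known as PLZF, also rose. It was 0.90, 0.74, 1.08 and 0.90 in PPARa-M mice, against 0.17, -0.04, -0.06 and 0.25 in SEAP-M mice (adjusted p = 0.000347). Hspb1, the small heat shock protein HSP27, was the called gene among 24 heat shock genes (4.17%, beside 1.04% of all genes called higher). It was 0.66, 1.00, 1.13 and 1.01 in PPARa-M mice, against -0.22, 0.03, 0.31 and 0.20 in SEAP-M mice (adjusted p = 0.0145). Other genes among the 20 largest increases were Neu3 (a sialidase of gangliosides, 1.07), Cacna2d2 (a calcium channel subunit, 1.07), Mmp7 (matrilysin, 0.94), Galnt15 (0.87), Pcp4l1 (0.83), Ctcflos (0.83) and the uncharacterized genes 1700067K01Rik (1.11), 1810053B23Rik (1.08), 1700015G11Rik (1.01), 2310067E19Rik (1.00) and 1700016C15Rik (0.96), with adjusted p-values from 0.00545 to 0.0462. Agt, angiotensinogen, chosen after its values were seen, rose by 0.68 ± 0.09 (adjusted p = 0.00135). For Agt, as for Cyp2c23, Slc2a5 and H2-T18 above, the call was not followed through the fits that left out an array. The Hspb1 call was lost without PPARa-M C or SEAP-M A (adjusted p up to 0.0570). Those of Neu3, Cacna2d2, Mmp7, Galnt15, Pcp4l1, Ctcflos, 1700015G11Rik and 2310067E19Rik were each lost without PPARa-M C, without SEAP-M A and without SEAP-M C, among others (up to 0.132), whereas Acnat2, Zbtb16, 1700067K01Rik, 1810053B23Rik and 1700016C15Rik were called in all 8 fits. Without both PPARa-M C and D, 1810053B23Rik too was no longer called (0.74, adjusted p = 0.0814). In that fit Cacna2d2, Ctcflos and Pcp4l1 dropped to 0.46, 0.30 and 0.35 (adjusted p = 0.210, 0.22 and 0.253). Neu3, Mmp7, Galnt15 and 2310067E19Rik were not called in it either, whereas Zbtb16, 1700067K01Rik, 1700015G11Rik and 1700016C15Rik were.

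The largest decreases included genes with little known expression in hepatocytes. Olig1, a transcription factor of oligodendrocytes, was -1.16, -0.72, -1.52 and -1.62 in PPARa-M mice, against 0.27, 0.38, 0.34 and 0.40 in SEAP-M mice (difference -1.60 ± 0.21, adjusted p = 0.000796). Dct, a tautomerase of melanin synthesis, was -0.75, -1.31, -1.10 and -1.06 in PPARa-M mice, against 0.21, 0.02, 0.45 and 0.28 in SEAP-M mice (adjusted p = 0.00898). Dntt, the terminal transferase of lymphocyte precursors, fell by 0.93 ± 0.16 (adjusted p = 0.00656). Each rests on 1 or 2 probes, and signal intensities were not analysed here. Nudt7, a peroxisomal coenzyme A diphosphatase, was -0.69, -1.16, -1.42 and -1.42 in PPARa-M mice, against 0.30, -0.24, -0.42 and -0.05 in SEAP-M mice (adjusted p = 0.0145). Slc25a30, a mitochondrial carrier, and Slc35f2, a solute carrier, fell by 0.95 and 1.04 on the log2 scale (adjusted p = 0.0106 and 0.0145). Osgin1, an oxidative stress-induced growth inhibitor, fell by 1.04 ± 0.23 (adjusted p = 0.0246) while Cbr1, a carbonyl reductase from the same list of 28 oxidative stress genes, rose by 0.58 ± 0.10 (adjusted p = 0.00752). In that list 3.57% were called in each direction, beside 1.04% higher and 1.51% lower of all genes. Pth1r, the parathyroid hormone receptor, 1810008I18Rik and Keg1 fell by 0.95, 1.03 and 0.88 (adjusted p = 0.0256, 0.0279 and 0.0396). Nudt7 lost its call without PPARa-M C or SEAP-M A (adjusted p up to 0.0565) and Slc35f2 without SEAP-M C (0.0551). Osgin1, Pth1r, 1810008I18Rik and Keg1 each lost theirs without PPARa-M C, without PPARa-M D and without SEAP-M A, among others (up to 0.122).

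F11, coagulation factor XI, fell by 0.79 ± 0.13 (adjusted p = 0.00585). It was the called gene among 35 of complement and coagulation (2.86%, beside 1.51% of all genes called lower). Pparg, the fat-cell relative of Ppara, was -0.38, -0.47, -0.38 and -0.42 in PPARa-M mice, against 0.04, 0.02, -0.01 and -0.23 in SEAP-M mice (adjusted p = 0.0106). It was the called gene among 38 nuclear receptors and liver transcription factors (2.63%, beside the same 1.51%). Timp3, an inhibitor of matrix proteases, rose by 0.49 ± 0.09 (adjusted p = 0.00803). In the splicing list Snrnp25 fell by 0.65 ± 0.13 (adjusted p = 0.0137), a call lost without both PPARa-M C and D (adjusted p = 0.0839). Sort1 and Npc1, which sort lipoproteins and cholesterol inside cells, fell by 0.37 and 0.35 (adjusted p = 0.0316 and 0.0378). Set against vehicle mice, PPARa-M mice differed in Npc1 by -0.37 (adjusted p = 0.0189) and in Sort1 by -0.12 (adjusted p = 0.412). Their calls were lost without PPARa-M C or D or SEAP-M A or C, and for Npc1 also without PPARa-M B or SEAP-M B (up to 0.111). Small changes with adjusted p-values of 0.0297 to 0.0499 were those of Wipi1, an autophagy protein (-0.46), Bcl2l2, an inhibitor of cell death (-0.33), Urod, an enzyme of heme synthesis (-0.25), and Bop1, a ribosome biogenesis factor (0.26). These 4 calls were each lost without PPARa-M C, without PPARa-M D, without SEAP-M A, without SEAP-M B and without SEAP-M C, among others (up to 0.135).

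Beyond these genes most lists lay close to all genes. Of 43 lists, 13 had no called member, among them the proteasome (39 genes), aminoacyl-tRNA synthetases (25), unfolded protein response (31), p53 targets (20), hypoxia targets (25) and the pericentral and periportal zones of the lobule (19 and 15). Of 78 oxidative phosphorylation genes Cox5a fell, of 64 cytosolic ribosomal protein genes Rps10 and Rps20 rose, and of 72 mitochondrial ribosomal protein genes Mrpl34 rose and Mrps5 fell. These are 1 of 78, 2 of 64 and 2 of 72 genes, beside 2.54% of all genes. Rps10 in PPARa-M mice lay at -0.11 from vehicle mice (adjusted p = 0.621). The calls of Cox5a, Rps10, Rps20, Mrpl34 and Mrps5 were each lost without PPARa-M C, without PPARa-M D, without SEAP-M A and without SEAP-M C, among others (adjusted p up to 0.122). The 13 peroxisome biogenesis genes had 12 negative differences, beside 8196 of 15252 over all genes, and a median of -0.16 with no call. The 32 genes of the growth hormone axis and sex-biased expression had a median of -0.16 with no call. Hsd3b5, a male-biased steroid dehydrogenase, was -0.09, -1.14, -1.78 and -1.70 in PPARa-M mice, against 1.25, -0.04, 0.29 and 0.61 in SEAP-M mice (adjusted p = 0.105).

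**Figure D3:**
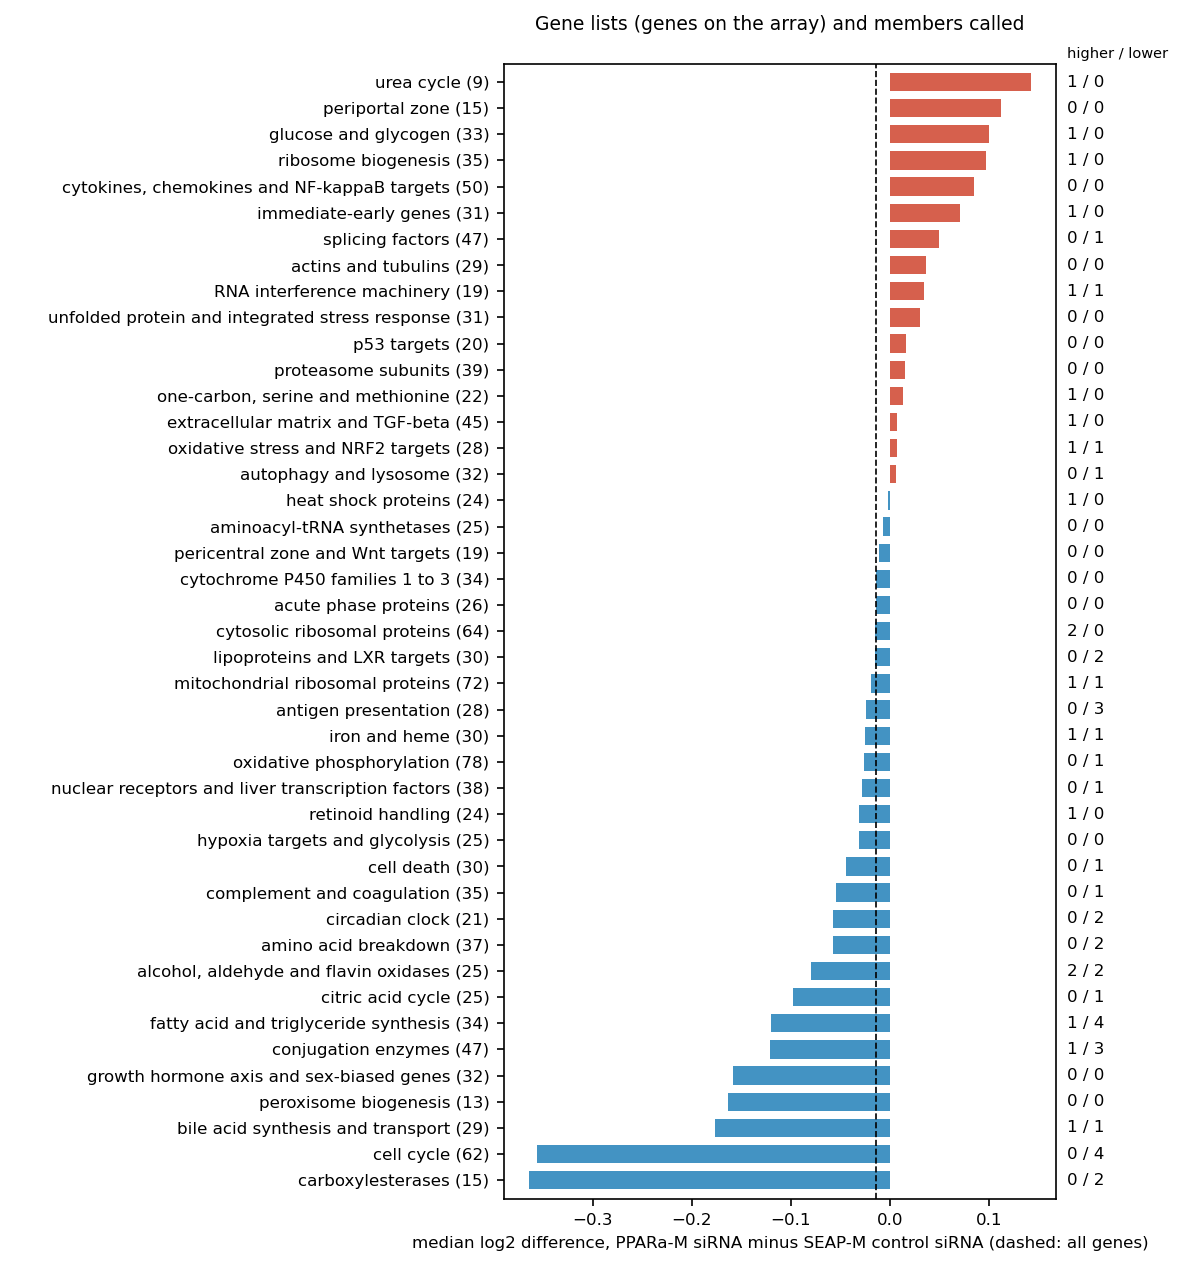
Median log2 difference, PPARa-M siRNA minus SEAP-M control siRNA, of each of 43 gene lists (horizontal bars, number of genes in parentheses), with the median of all genes as a dashed line, and the number of members called higher and lower at the right. Carboxylesterases and cell cycle genes have the lowest medians, -0.36 for each.

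Of 8 hepatocyte markers 0 were called by limma. At an unadjusted p under 0.05, 3 were higher, beside 1172 of all 15252 genes. The median difference of these markers was 0.15. Their mean log2 ratios were -0.04, 0.12, 0.15 and 0.21 in PPARa-M mice, against -0.04 to -0.01 in SEAP-M mice. PPARa-M mice B, C and D were above every SEAP-M mouse. Of 9 cholangiocyte markers Cldn4, a claudin of bile duct epithelium, rose by 0.52 ± 0.09 (adjusted p = 0.00575), and the list mean was 0.15 to 0.36 in PPARa-M mice, against -0.07 to 0.12 in SEAP-M mice. Of 20 endothelial markers Flt1, a VEGF receptor, rose by 0.46 ± 0.11 (adjusted p = 0.0370), a call lost without PPARa-M B, C or D or SEAP-M A or C (adjusted p up to 0.114). Of 17 erythroid markers Ermap was called and lay at -0.26, -0.30, -2.10 and -0.74 in PPARa-M mice, against 0.46, 0.16, 0.38 and 0.70 in SEAP-M mice (adjusted p = 0.0199); this call was lost without SEAP-M A or C (up to 0.0565). The 9 markers of the exocrine pancreas, an organ that lies against the liver, averaged 1.00, 1.78, 1.16 and 1.24 in PPARa-M mice, against 0.74, 0.05, 0.60 and 1.55 in SEAP-M mice, with 0 called. None of the Kupffer, neutrophil and monocyte, T and NK, B, stellate, platelet, muscle or adipocyte markers was called. The shares called, 1 gene each, were 11.1% higher for cholangiocyte, 5.0% higher for endothelial and 5.88% lower for erythroid markers. Over all genes 1.04% were called higher and 1.51% lower. The part of these markers in the other results was not tested.

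The other siRNA pair, PPARa siRNA against GL3 control siRNA, shares no siRNA array with this one, differed in 8 genes on its own (0.0525%, all higher) and allows a test of the difference between the pairs. That test passed for 134 of all genes (0.879%), with the PPARa-M pair higher for 83 and lower for 51. It passed for 17 of the 86 called genes named under the rule. The 86 were chosen by the PPARa-M against SEAP-M comparison, which is part of the tested quantity. The 17 of 86 therefore cannot be set against the 0.879% of all genes. Acss2 differed by -1.20 in the PPARa-M pair and by 0.29 in the PPARa pair (adjusted p of the difference between the pairs = 0.0274). Elovl5 and Fads2 passed as well (adjusted p = 0.0393 and 0.0357), with PPARa minus GL3 differences of 0.29 and -0.04. Slc22a7, Ces1g and Aldh1a7 passed at adjusted p-values of 0.0112, 0.0112 and 0.0238, Zbtb16 and H2-Q10 both at 0.0188, and Tnrc6b at 0.0274. Ppara differed by -0.89 here and by -0.34 in the other pair, where it was not called (limma adjusted p = 0.9998). The test of the difference between the pairs did not pass for Ppara (adjusted p = 0.351). For Asl, Cyp26a1, Slc2a4 and the cell cycle genes named above the test of the difference did not pass either, with adjusted p-values from 0.0621 (Foxm1) to 0.499 (Cyp26a1).

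**Figure D4:**
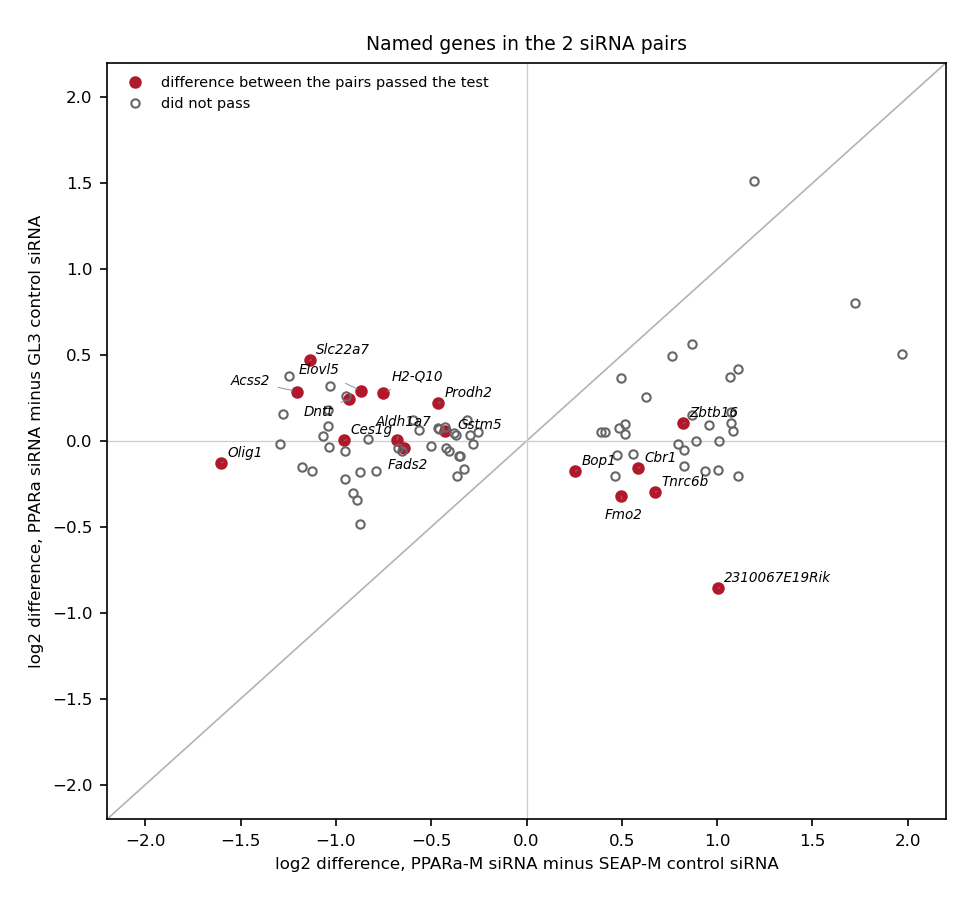
Log2 differences of the 86 called genes named under the rule, PPARa-M minus SEAP-M (horizontal axis) against PPARa minus GL3 (vertical axis), with the 17 genes whose difference between the pairs passed the test in red. The grey diagonal marks equal differences, and the red points lie near or beyond 0 on the vertical axis, from -0.86 for 2310067E19Rik to 0.47 for Slc22a7. The genes were chosen by the comparison on the horizontal axis.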

How the data were processed

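Total RNA of each liver was converted to labelled cRNA and hybridized with a pool of 4 vehicle livers on a 2-colour array. The authors deposited 1 log10 ratio per probe and array. Normalization and software are not given in the sources used here, the depth of the signal is unknown, and 40 of 469860 deposited values lay at the limit of 2 or -2. The deposited log10 values were converted to log2 and averaged over the 18790 probes with a single symbol (65 had several and 4638 none). limma (version 3.58.1, R version 4.3.3) was fitted to all 20 arrays with a mean per group, and p-values were adjusted by Benjamini-Hochberg over 15252 genes. The fit was tested on simulated data. Genes named under the rule were Ppara, up to 20 largest increases and decreases among called genes whose mice did not overlap, and list and marker members with the smallest p. Fasn, Acly, Fads1, Scd1, Cyp8b1, B2m, Tap1, Mki67 and Top2a fall outside this rule and were chosen after their values were seen. So were Cyp2c23, Slc2a5, H2-T18 and Agt. Members and lists were chosen with earlier results of these data known. Alternatives covered scaling, weights, robust fitting, thresholds, probes and arrays left out; the 2 that average or leave out PPARa-M C and D were chosen after seeing the data. Promoter sequences came from RefSeq (GRCm38.p6). The labels do not say that mice were processed separately, so p-values measure the spread between these samples only.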

Additional observations from a re-analysis of the deposited data

Results flagged for a closer look

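In 172 groups of 4 mice (86 genes), 12 values lay far from the others of their group by Dixon's criterion, which chance alone gives in about 1 of 20 groups. In PPARa-M mouse B these were Ppara (-1.05), 1700067K01Rik (1.60), Acss2 (-1.50), H2-K1 (-0.90) and Dusp1 (0.24), all log2 ratios. In PPARa-M mouse A they were Asl (0.14) and Cldn4 (0.22), and in PPARa-M mouse D Cdkn3 (-0.95). In SEAP-M mouse A they were 1700067K01Rik (-0.50) and Ces2e (-0.28), and in SEAP-M mouse D Npc1 (-0.20) and Pparg (-0.23).

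For 17 genes the difference between the PPARa-M and SEAP-M groups was not that between the PPARa and GL3 groups, by a limma test of the difference itself. The PPARa-M pair had the higher log2 difference for 2310067E19Rik (by 1.86), Tnrc6b (0.97), Fmo2 (0.82), Cbr1 (0.74), Zbtb16 (0.72) and Bop1 (0.43). For the others the value was -1.61 for Slc22a7, -1.49 for Acss2, -1.47 for Olig1, -1.17 for Dntt, -1.16 for Elovl5, -1.03 for H2-Q10, -0.96 for Ces1g, -0.69 for Aldh1a7, -0.68 for Prodh2, -0.60 for Fads2 and -0.49 for Gstm5.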

How the results depend on the processing

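The number of calls depended on the fit. No called gene changed direction in the fits of gene means or medians, which reuse the arrays that gave the calls. Against 158 genes higher and 230 lower, array weights gave 370 and 512, every probe as its own feature 292 and 340, a threshold of 0.01 gave 28 and 43, and a fold of at least 1.5 gave 67 and 70. The 8 arrays alone gave 13 and 28, scaling to one interquartile range 8 and 5 (61.5% of calls higher, against 40.7% in the fit reported), and quantile normalization 0 and 1, that gene being Ube2h, with 617 and 924 at an unadjusted p under 0.05. Median centring gave 175 and 200. Leaving out 1 array gave 53 to 216 higher and 105 to 279 lower, the fewest higher without SEAP-M A and the fewest lower without SEAP-M C. With PPARa-M C and D averaged 61 and 119 were called, and without both 329 and 331 (49.8% higher). The Ppara difference was -0.74 after quantile normalization (adjusted p = 0.141), -0.61 after interquartile scaling (0.112) and -0.89 on the 8 arrays (0.125), no longer passing. The letters of the mice did not pair them: same-letter deviations correlated at -0.14 to 0.029, and a replicate block gave 191 higher and 238 lower. For single named genes 3084 alternative values kept direction and side of the threshold, 590 no longer passed, 83 newly passed and 5 turned direction. The 3084 include genes that were not called in the fit reported and stayed so. All of the 590 are of called genes, so these counts understate how often a call was lost. Of the 86 called genes 52 lost the call in at least 1 of the 8 fits that left out 1 array. List medians shifted by less than a tolerance in 1106 cases and by more in 15. The tolerance came from the spread of the list means between mice, so it was wider for lists that varied more. What caused these changes was not tested.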
